A study of Rattus norvegicus with 12 samples.

Results

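The order of events during aspirin exposure was followed in CC531 cells, a rat colon carcinoma line, by setting the later hours of exposure against the earlier ones. The members were chosen by sample title alone: 5 of the 12 arrays of the series, all from cells given 3 mM aspirin, of which the 12, 16 and 24 h arrays (n = 3) formed the late group and the 2 and 6 h arrays (n = 2) the early group. Every probe set that is not a hybridisation control entered (8740 of 8799), and 6118 of them were bright enough to test. The other 7 arrays were from cells given 4.5 mM butyrate for 2, 6, 12, 16 or 24 h (1 array each, n = 5 in all) and from untreated cells at 2 and 24 h (n = 2). Each drug and hour was measured on 1 array of total RNA, and nothing in the labels says whether different arrays had different cultures behind them. A group therefore holds neighbouring hours of 1 time course and not repeats of 1 condition. An untreated array was used at 2 of the 5 hours only. A p-value here speaks of the spread among the arrays alone. For late against early hours it is the spread within all 5 groups of arrays, butyrate and untreated included. It holds change between the hours of a group, and the rest of it may be technical.

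Aspirin acetylates and blocks the cyclooxygenases, the enzymes that open prostaglandin synthesis, and at high concentration it and its product salicylate also act on cells without them, through energy metabolism, stress signalling and NF-kappaB. Stress of the endoplasmic reticulum or of amino acid supply is carried to the nucleus by transcription factors of the ATF and C/EBP families, which switch on repair and feedback genes over hours. Colon carcinoma cells answer many growth-limiting drugs by raising inhibitors of the cell cycle and of Myc.

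The late and early arrays differed slightly as a whole, which bears on every direction given here. The median log2 intensity of the tested probe sets was 8.49 and 8.50 at 2 and 6 h and 8.60, 8.76 and 8.70 at 12, 16 and 24 h. The ratio of the 5′ to the 3′ actin control, a sign of RNA or labelling quality, was 0.646 at 2 h and 0.881 at 6 h, against 0.812, 0.963 and 0.974 at the late hours and 0.943 to 1.04 on the 7 other arrays. The part of this drift in the results was not tested. Of the colon epithelial markers, 9 were on the array, none was under the floor on every aspirin array, and their summed intensity ran from 65873 to 72206 on the early and from 63930.2 to 74309 on the late arrays. The 11 fibroblast and smooth muscle markers summed to 2356 to 2879 early and 3689 to 4874 late, mostly through one Acta2 probe set, and 3 of them stayed under the floor throughout. The 8 blood and immune markers summed to 1977 to 2456 early and 3022 to 5332 late, mostly through Cd14, with 2 under the floor. The 4 endothelial markers summed to 472 to 511 early and 628 to 696 late (1 under the floor), and the 8 hepatocyte markers to 954 to 1292 early and 1250.4 to 1452 late (2 under the floor). What these sums contribute to the results was not tested.

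Few probe sets passed the test. Between the early and the late hours of aspirin, 6 of 6118 probe sets passed an adjusted p of 0.05 (0.0981% of those tested; limma with Benjamini-Hochberg adjustment), 5 higher (0.0817%) and 1 lower (0.0163%). The named genes among them were Cebpb, Entpd2 and P4hb, all higher late. At an unadjusted p under 0.05 there were 717 probe sets (11.7%), 471 higher (7.70%) and 246 lower (4.02%), where 305.9 would be reached if no probe set differed. A plain comparison of the arrays gave more: in 216 probe sets (3.53% of those tested) all 3 late arrays lay above both early ones with means at least 2-fold apart, and in 51 (0.834%) all lay below. With each array centred on its own median these counts became 120 higher and 134 lower, and with quantile normalization 150 higher and 87 lower, so the excess of rises depends on the scaling. Centring also moved the median difference of all tested probe sets from 0.04 to -0.18 on the log2 scale. Leaving out 1 array moved the 6 called sets to 0 (without aspirin 16 or 24 h), to 1 (without untreated 2 h or any late butyrate array), to 3 (without untreated 24 h), to 10 (without aspirin 2 h), to 14 (without 12 h) and to 19 (without 6 h). The direction of the calls moved with it: without aspirin 2 h 1 was higher and 9 lower, without 6 h 5 and 14, and without 12 h 13 and 1. The 216 became 366 without 6 h and 368 without 12 h, and the 51 became 186 without 6 h and 104 without 2 h or 12 h. A 2-sided exact rank-sum test of 1 gene with 3 arrays against 2 cannot go below p = 0.2.

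Cebpb encodes C/EBP-beta, a leucine-zipper transcription factor of inflammation and cell stress. One of its probe sets read 294 at 2 h and 428 at 6 h of aspirin, then 1370.1 at 12 h, 1400.3 at 16 h and 2761 at 24 h, with 429.8 and 555 in the untreated cells at 2 and 24 h. The early arrays thus lay below both untreated ones and the late arrays above them. The late mean was higher by 2.30 ± 0.36 on the log2 scale (SE, adjusted p = 0.0341, limma). The brighter probe set of the same gene read 1924, 3238, 4427, 6029.7 and 8129.6 over the 5 hours and was higher late by 1.27 ± 0.28, which did not pass (adjusted p = 0.114). Under butyrate neither set showed this climb, with 1487 at 2 h and 1884 at 24 h for the first.

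Entpd2 encodes a cell-surface enzyme that splits extracellular ATP. Its intensity was 551 and 838 early and 2089, 3097 and 3692 late, against 745 and 1149 untreated, so that here too every late array exceeded both untreated ones. The rise was 2.08 ± 0.33 (SE, adjusted p = 0.0341, limma), and the gene's other probe set was higher late by 1.02 ± 0.32 (adjusted p = 0.240). Under butyrate the gene stood higher from the start, at 2067 by 2 h and 5094 by 24 h.

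P4hb encodes protein disulfide isomerase, which forms disulfide bonds in the endoplasmic reticulum. The probe set that passed read 395 and 313 early and 990.3, 1086 and 1507 late, a rise of 1.74 ± 0.27 (adjusted p = 0.0341, limma), yet the untreated arrays read 1604.5 and 1014. The late arrays therefore lay near the untreated level and the early ones below it. The other 2 P4hb probe sets differed by 0.12 ± 0.18 and 0.08 ± 0.23 only, so the gene's call rests on 1 of 3 probe sets.

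These 3 calls sat close to the threshold. Over 21 alternative settings, Cebpb passed in 3, Entpd2 in 4 and P4hb in 3, with adjusted p between 0.0214 and 0.309 for Cebpb, 0.0214 and 0.281 for Entpd2 and 0.0214 and 0.250 for P4hb. The change kept its sign throughout and was at least 1.96, 1.78 and 1.52 respectively. Without the 2 h aspirin array it was 2.03 for Cebpb (adjusted p = 0.172), 1.78 for Entpd2 (0.198) and 1.91 for P4hb (0.0739).

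**Figure D1:**
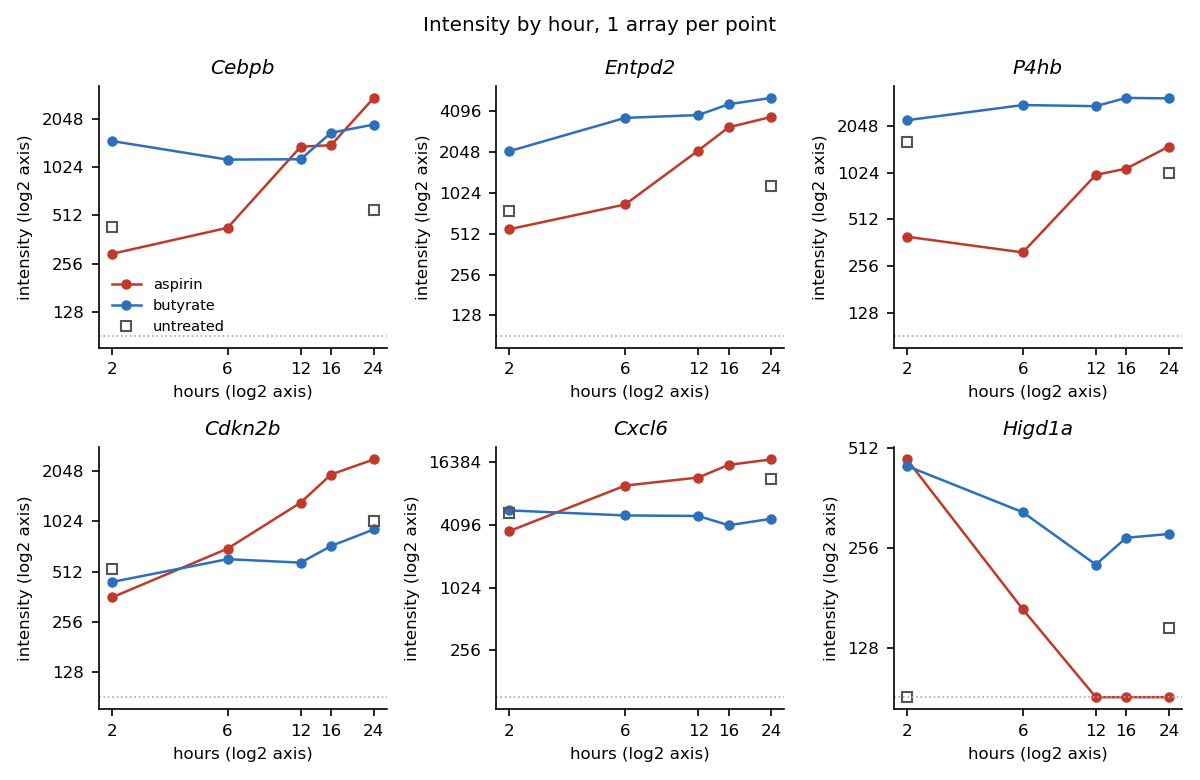
Deposited intensity (log2 axis) against hours (log2 axis) for 6 genes, 1 array per point, with aspirin in red, butyrate in blue, untreated cells as open squares and the floor of 90.91 as a dotted line. Cebpb, Entpd2, Cdkn2b and Cxcl6 climb under aspirin at each hour and end above both untreated arrays, P4hb climbs back to the untreated range, and Higd1a falls to the floor by 12 h.

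The remaining genes named by rank did not pass the test but separated the 2 groups by at least 2-fold, and are given as values. Klf9, a Krüppel-like transcription factor, read 869 and 1276 early and 2889, 2714 and 3644 late (difference 1.54 ± 0.25, adjusted p = 0.0505, limma). Itgb7, the integrin beta-7 chain, was dim early, at 186 and, under the floor, 81.1, and read 575, 717 and 1503 late, and both of its probe sets separated the hours, by at least 2.71 and by 2.28 ± 0.39. Cpt1a, which loads fatty acids for entry into mitochondria, stood at 915 and 1126 early and at 2197, 2423 and 2079 late, with 1031 and 842 untreated. Its late arrays were thus flat from 12 h onwards, at about the same distance above the untreated cells.

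Mxi1, a partner of Max that opposes Myc, read 791 and 688 early and 1517, 1647 and 1838 late, a difference of 1.17 ± 0.21. Mapkapk3, a kinase downstream of p38, read 522 and 659 early and 1705, 1483 and 2454 late (1.65 ± 0.30), and all 3 of its other probe sets also separated the hours, by 0.49 to 1.17. Pdp1, the phosphatase that activates pyruvate dehydrogenase, read 222 and 373 early and 742, 1009.8 and 1519 late (1.86 ± 0.35). All 3 late arrays of Pdp1 lay above the untreated pair of 602 and 553. For Hsp90ab1, a cytosolic chaperone, the values of one probe set went from 3677 and 5746 to 9394, 8933 and 11496, but the untreated arrays read 11452 and 10619, and its 3 other probe sets differed by -0.10, 0.37 and 0.11.

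The fall that passed belonged to a probe set with no gene name, which read 243 and 351 early and was under the floor late, a fall by at least 1.69 (adjusted p = 0.0100, limma). Among named genes, none passed in the downward direction. Dnase1, which cuts DNA outside cells, read 424 and 413 early and was under the floor on all 3 late arrays, at least 2.20 lower (adjusted p = 0.0584), but its second probe set overlapped between the groups. Jup, the junction protein plakoglobin, read 1818 and 1591 early and 932, 580.4 and 575 late (-1.33 ± 0.32, adjusted p = 0.149), and Akap8, a nuclear anchoring protein, read 2452 and 1760.4 early and 1111, 959 and 826 late (-1.12 ± 0.29). Polr1d, a subunit shared by RNA polymerases I and III, read 2758 and 2292 early and 1408, 1074 and 1137 late (-1.07 ± 0.26), with its second probe set at -0.89 ± 0.28.

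Timm10b, of the import machinery of the inner mitochondrial membrane, read 1334 and 927 early and 422, 457 and 385 late, a difference of -1.40 ± 0.35. Higd1a, a mitochondrial protein induced by low oxygen, read 473 and 167 early and was under the floor late (at least 1.63 lower), and its brighter probe set went from 5374 and 4905 to 4160, 3017 and 2558. Phrf1, a nuclear RING- and PHD-finger protein, went from 1339.6 and 908 to 509, 513 and 494. The last 3 of the 10 lower genes were Hr, a nuclear corepressor (-1.10), Cdc123, a translation initiation factor assembly protein (-1.14, with -0.50 in its other set), and Vom2r53, a vomeronasal receptor (-1.30).

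A slope over all 5 hours used the order that 2 groups discard, and was fitted on the 10 treated arrays, so that its error is shared with butyrate. It passed in 101 probe sets (1.65% of 6118; limma), 81 rising (1.32%) and 20 falling (0.327%), with 1204 (19.7%) at an unadjusted p under 0.05. The 81 rising sets stood for 60 named genes and the 20 falling ones for 17. Centring turned the split into 62 rising and 135 falling, and quantile normalization into 76 and 51. On the 5 aspirin arrays alone no slope passed (965 at an unadjusted p under 0.05). The count fell to 6 without butyrate 6 h, 7 without aspirin 24 h, 16 without butyrate 16 h, 27 without aspirin 16 h, 55 without butyrate 12 h and 65 without butyrate 24 h, and went up to 231 without aspirin 6 h.

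Cdkn2b, which encodes p15, an inhibitor of the cyclin D kinases, led the rising genes together with the neutrophil chemokine Cxcl6. Cdkn2b read 358.5, 702.5, 1323, 1947 and 2398 from 2 to 24 h, against 528 and 1021 untreated and 443 to 915 under butyrate. It rose by 0.79 ± 0.07 per doubling of time (SE, adjusted p = 0.0152, limma) and passed in 17 of 18 alternatives. Cxcl6 read 3565, 9754, 11646, 15406 and 17390.0 and rose by 0.63 ± 0.06 per doubling (adjusted p = 0.0152), and the untreated arrays also differed for this gene, with 5267 at 2 h and 11297 at 24 h. Without the 2 h array the slope of Cxcl6 was 0.44 (adjusted p = 0.0573). Cebpb (0.57 ± 0.06, brighter set), Entpd2 (0.83 ± 0.08), Pdp1 (0.78 ± 0.09) and Hsp90ab1 (0.46 ± 0.05, 1 of 4 sets) rose at an adjusted p of 0.0154 each.

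Other rising genes are given by what their products are known to do, a grouping made after their values were seen and not tested. Among stress and feedback genes, Ppp1r15a, which encodes GADD34 and restarts translation after stress, read 355, 427, 664, 753 and 1322 and rose by 0.49 ± 0.09 per doubling (adjusted p = 0.0496, limma), with 0.39 ± 0.08 in its second set (adjusted p = 0.0569). Dusp6, a phosphatase that switches off ERK, rose by 0.54 ± 0.09 in 1 of 2 sets (adjusted p = 0.0264), from 2248 at 2 h to 8827 at 24 h. Klf4 (0.32 ± 0.06, 1 of 2 sets), a factor of epithelial differentiation, Ier3 (0.30 ± 0.05, 1 of 2 sets), Nr4a1 (0.50 ± 0.09, 1 of 2), an orphan nuclear receptor, Hbp1 (0.59 ± 0.10), a repressor of cell cycle genes, and the p38-family kinase Mapk12 (0.75 ± 0.10) rose as well. All of these passed by the slope and not by the contrast of groups.

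Among secreted and surface proteins, Plau, the urokinase protease, rose by 0.83 ± 0.11 per doubling (adjusted p = 0.02, limma), with 432 at 2 h, then 1927, 2522 and 2518, and 3790.2 at 24 h. Most of that rise lay between 2 and 6 h. Vegfa, the angiogenic growth factor, rose in 2 of its 5 probe sets (0.60 ± 0.09 and 0.56 ± 0.10), Sdc1, a heparan sulfate proteoglycan, in both (0.37 ± 0.06 and 0.47 ± 0.07), and Cd44, the hyaluronan receptor, in 1 of 3 (0.79 ± 0.11). The bright Cd44 set read 1404 and 1224 early and 2525, 2235 and 3589 late, but the untreated cells read 2931 at 2 h and 928 at 24 h. The neuropeptide precursor gene Vgf rose by 0.59 ± 0.11 from below the floor at 2 h to 385 at 24 h.

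Among enzymes of the lysosome, cathepsin D (Ctsd) rose by 0.63 ± 0.08 per doubling in 1 of 2 probe sets (adjusted p = 0.0168, limma), from 828 at 2 h to 4183 at 24 h, cathepsin L (Ctsl) by 0.27 ± 0.04 in 1 of 2 and the acid lipase Lipa by 0.32 ± 0.06 in 1 of 3. Of the sterol enzymes, Msmo1 rose by 0.43 ± 0.06, Dhcr7 by 0.53 ± 0.10 and Cyp51 by 0.76 ± 0.10, each in 1 of its tested probe sets. Lta4h, which makes leukotriene B4, rose by 0.30 ± 0.04 in 1 of 2 sets (adjusted p = 0.02), from 3731 at 2 h to 8323 at 24 h. Cpt1a (0.41 ± 0.08), Klf9 (0.61 ± 0.07, 1 of 2 sets), Itgb7 (0.91 ± 0.11, 1 of 2) and Mapkapk3 (0.64 ± 0.11, with 2 of 4 sets passing) also passed as slopes.

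The falling slopes were led by Strn3, a scaffold of a phosphatase complex (-0.36 ± 0.05 per doubling, adjusted p = 0.02, limma), which was under the floor from 12 h onwards. The size of its slope therefore depends on the floor. Over 17 alternatives it ran from -0.652 to -0.00137 and passed in 13. Ankrd24 read 280, 222, 155, 127 and 124 (-0.36 ± 0.05). Bud31, a splicing factor, read 5499, 4679, 3052, 2755 and 2788 (-0.31 ± 0.05) and ended at the untreated level of 2680.1 and 3009. Cyb5a, the electron donor cytochrome b5, fell in 1 of 2 probe sets, from 2486 to 1090.2 (-0.33 ± 0.05), and Higd1a (-0.71 ± 0.11, 1 of 2 sets), Akap8 (-0.46 ± 0.07) and Polr1d (-0.41 ± 0.07, 1 of 2) fell too. Hnrnpa1, an RNA-binding protein of splicing, fell by 0.35 ± 0.06 in 1 of its 4 probe sets. Without the 2 h array the slope of Higd1a was -0.46 (adjusted p = 0.225).

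The steps between neighbouring hours show how the slopes were made up. Of the 81 rising probe sets, 40 took their largest step from 2 to 6 h, 33 from 6 to 12 h, 2 from 12 to 16 h and 6 from 16 to 24 h, and 45 rose at every one of the 4 steps. Their median step was 0.64, 0.52, 0.23 and 0.30 on the log2 scale in that order, which is 0.40, 0.52, 0.55 and 0.51 per doubling of time. A slope over log2 hours weights the intervals by their number of doublings, and the first 2 intervals hold the most doublings, so larger plain steps there follow from the choice of sets. Of the 20 falling sets, 10 took the largest step from 2 to 6 h, 6 from 6 to 12 h, 3 from 12 to 16 h and 1 from 16 to 24 h. Over all tested probe sets, changes of at least 2-fold between neighbouring hours numbered 291 up and 313 down from 2 to 6 h, 309 and 182 from 6 to 12 h, 340 and 159 from 12 to 16 h, and 220 and 242 from 16 to 24 h. Intervals of 4, 6, 4 and 8 h are unequal, and each step compares 1 array with 1 array.

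Because the 2 h array is the first point of each slope, its place at one end of the course follows from how these sets were chosen. It lay below both untreated arrays in 59 of the 81 rising sets, against 33% of all tested. It lay above both in 20 of the 20 falling ones, against 25% of all tested. These counts describe the sets and test nothing. All late arrays lay above both untreated ones in 50 of the 81, against 11.0% of all tested. They lay below both in 3 of the 20, which is near the 12.4% of all tested. The 2 h array also has the lowest actin 5′ to 3′ ratio (0.646), whose part in these slopes was not tested.

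Promoters of the rising genes were read for the element bound by CREB and ATF proteins, since Ppp1r15a, Cebpb and Vgf are known targets of such factors. RefSeq sequence on GRCr8 from 250 bases before to 50 bases after the start was held for 52 of the 60 rising and 15 of the 17 falling genes. The palindrome TGACGTCA, which reads the same on both strands, stood in 4 of the 52 (7.69%: Cdkn2b, Ppp1r15a, Vgf and Hsp90ab1) and in 0 of the 15, against 81 of 3016 tested genes with a promoter (2.69%) and 525 of all 27457 promoters (1.91%). The composite TGATGNAAT, searched on both strands, stood in 0 of the 52, 0 of the 15, 16 of the 3016 (0.531%) and 288 of the 27457 (1.05%). The 250 bases before the start are shown for the 3 genes in which no tested probe set went against the rise, with the match in capitals. They were chosen after their values were seen, and a match is a description of the letters only.
Cdkn2b: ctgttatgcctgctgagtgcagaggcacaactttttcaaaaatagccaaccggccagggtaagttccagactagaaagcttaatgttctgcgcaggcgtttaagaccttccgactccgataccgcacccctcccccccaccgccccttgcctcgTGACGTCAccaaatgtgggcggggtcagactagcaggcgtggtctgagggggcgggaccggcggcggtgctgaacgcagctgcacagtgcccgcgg
Ppp1r15a: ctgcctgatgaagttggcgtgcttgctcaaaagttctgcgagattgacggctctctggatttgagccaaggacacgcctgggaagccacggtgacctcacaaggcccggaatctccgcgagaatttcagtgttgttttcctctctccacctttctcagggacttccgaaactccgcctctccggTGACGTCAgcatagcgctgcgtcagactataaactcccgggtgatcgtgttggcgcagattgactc
Vgf: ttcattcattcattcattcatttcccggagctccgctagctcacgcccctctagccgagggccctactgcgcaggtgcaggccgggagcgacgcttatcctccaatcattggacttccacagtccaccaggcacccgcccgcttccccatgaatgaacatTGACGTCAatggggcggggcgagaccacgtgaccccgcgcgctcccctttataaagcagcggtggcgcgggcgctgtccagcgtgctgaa
The Cdkn2b stretch is chr5:109134856-109135105, the Ppp1r15a stretch chr1:105139597-105139846 and the Vgf stretch chr12:25277021-25277270, all on the minus strand, and the matches begin 96, 66 and 90 bases before the start.

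A gene can be higher late than early because it rose above the untreated level or because it had first dropped below it, and the untreated pair separates these cases. Of the 216 probe sets higher late by at least 2-fold, 96 (44.4%) had all late arrays above both untreated arrays, against 672 of all tested (11.0%), and 111 (51.4%) had both early arrays below both untreated ones, against 1341 of all tested (21.9%). In 83 (38.4%) the early arrays lay below and the late arrays were not all outside the untreated pair, 67 went from that range to above it, 24 crossed from below to above, and 33 did not clear it at either time. Cebpb and Entpd2 belong to the genes that crossed from below or near the untreated level to above it, and P4hb to those that came back. Of the 51 lower sets, 23 (45.1%) had both early arrays above both untreated ones (778 of all tested, 12.7%) and 19 (37.3%) had all late arrays below (758 of all tested, 12.4%). These sets were chosen by the same aspirin arrays, so the shares describe them and test nothing.

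The median of the 216 sets, relative to the mean of the untreated pair, was -0.79 at 2 h and -0.62 at 6 h of aspirin, then 0.34, 0.74 and 1.0 at 12, 16 and 24 h on the log2 scale. The same probe sets under butyrate stood at 0.05, 0.44, 0.55, 0.43 and 0.66. For the 51 lower sets the aspirin medians were 0.61, 0.41, -0.60, -0.52 and -0.89, and all tested sets stayed between -0.08 and 0.00. Both groups of sets were chosen because the late arrays lay beyond both early ones. The gap between 6 and 12 h of aspirin therefore follows from the choice and does not time the response. Of the 102 other tested probe sets of the 162 genes named by the 216, 82 (80.4%) also had a higher late mean, against 59.8% of all tested, and 23 separated the hours. Of the 33 other sets of the 41 lower genes, 17 (51.5%) had a lower late mean, against 40.2% of all tested.

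**Figure D2:**
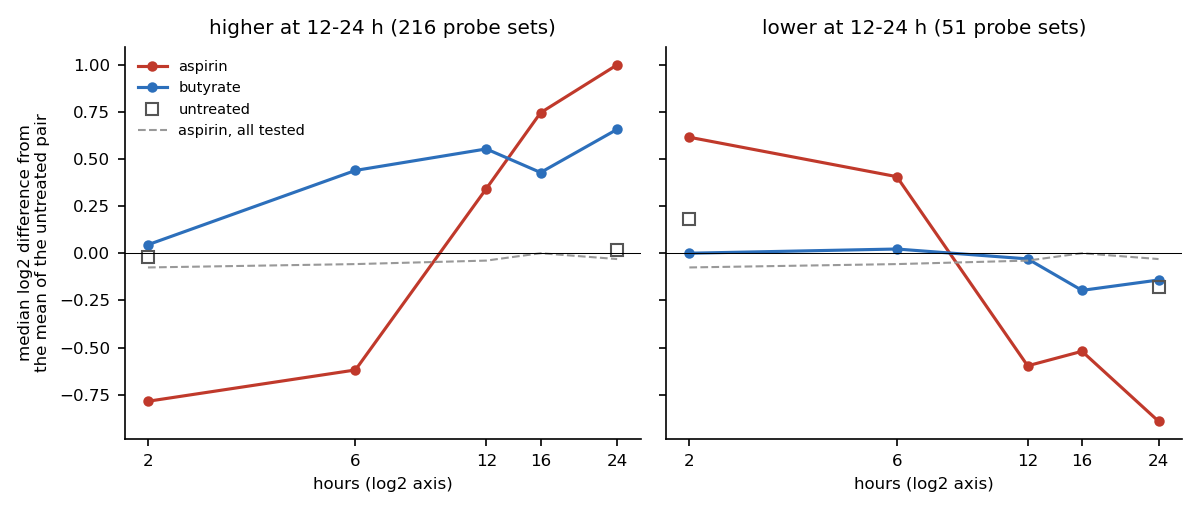
Median log2 difference from the mean of the untreated pair against hours (log2 axis), for the 216 probe sets at least 2-fold higher late without overlap (left) and the 51 lower (right), with aspirin in red, butyrate in blue, the untreated arrays as open squares and all tested sets under aspirin as a dashed line. The higher sets run from -0.79 at 2 h to 1.0 at 24 h of aspirin, and the lower sets run from 0.61 to -0.89. The gap between 6 and 12 h follows from how the sets were chosen.

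Gene groups were described over the brightest probe set of each gene, of which 3647 were tested. Over all of them the median late-less-early difference was 0.05 on the log2 scale, 608 genes (16.7%) separated the hours upward and 399 (10.9%) downward. As slopes, 40 of the 3647 genes passed rising and 13 falling, which is the scale for the slopes counted in each list. By this brightest set no member of any list passed the contrast of groups, so lists are given by their counts and medians. Members that passed as slopes are named for some lists only.

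Under butyrate the late arrays lay above both early ones in 18.7% of all tested probe sets and below in 14.1%, and under aspirin in 16.1% and 10.8%. After centring, the late aspirin arrays lay above both early ones in 538 of the 6118 tested probe sets and below in 1805. The median difference of all tested sets was then -0.18. Without the 2 h aspirin array, the late arrays lay above the 6 h one in 1616 sets and below it in 1309.

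Cholesterol synthesis had opposite medians under the 2 drugs. Of 16 genes tested, 10 separated the hours upward and 0 downward, with a median of 0.52, while under butyrate the median was -0.51 with 0 upward and 11 downward. Insig1, which restrains the sterol-sensing machinery and is itself sterol-regulated, read 528 and 205 early and 741, 1275 and 2777 late (2.07 ± 0.55, adjusted p = 0.172, limma), against 257 and 365 untreated, while its second set overlapped (1.63 ± 0.63). Dhcr7, the last reductase of the pathway, read 608 and 641 early and 1429.8, 1768 and 1962 late (1.45 ± 0.28, adjusted p = 0.0651). Msmo1, the sterol methyl oxidase, read 5029 and 6754 early and 9768, 11917 and 14106 late (1.02 ± 0.29). Untreated cells moved the same way: the 24 h array exceeded the 2 h one by a median of 0.80 over the list. The median stayed above 0 under centring (0.30, with 6 upward and 1 downward, against 538 and 1805 of all 6118 tested probe sets). Fatty acid synthesis (8 genes) had a median of 0.26 with 2 upward and 1 downward, and fatty acid oxidation (28 genes) a median of 0.36 with 9 upward and 1 downward, of which Cpt1a passed as a slope.

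The amino acid and integrated stress genes (23 tested) had a median of 0.30, with 7 upward, 2 downward and 2 rising slopes, against -0.24 under butyrate. Ddit3, the stress factor CHOP, read 1464 and 1049.6 early and 3005, 3445 and 4849.8 late, a difference of 1.57 ± 0.36 (adjusted p = 0.125, limma), with 542 and 1460.2 untreated. Its late arrays lay above every other array of the series, where butyrate reached 2479. Trib3, a pseudokinase induced by CHOP, read 561 and 263 early and 713, 1564 and 2007 late (1.77 ± 0.51), while butyrate gave 212 to 307. Asns and Phgdh, which make asparagine and serine, did not follow: Asns differed by -0.07 ± 0.22 and the 3 Phgdh sets by -0.43 to -0.63.

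Chaperones of the endoplasmic reticulum were mixed. Over 23 genes the median was 0.11 with 4 upward and 2 downward, and it turned to -0.11 under centring. Dnajb9, a co-chaperone of the unfolded protein response, read 244 and 137 early and 783, 729 and 653 late (1.98 ± 0.48, adjusted p = 0.147, limma). The bright sets of Hspa5, the main chaperone there, and of Calr, calreticulin, differed by 0.02 ± 0.26 and 0.00 ± 0.30. Cytosolic heat shock genes (22) had a median of 0.08, 3 upward and 2 downward, which also turned below 0 under centring (-0.14).

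Growth arrest genes (16 tested) had a median of 0.46, with 8 upward, 0 downward and 1 rising slope, close to 0.42 under butyrate. Klf6, a tumour-suppressing Krüppel-like factor, read 137 and 255 early and 332, 474 and 917 late (1.49 ± 0.57). Cdkn1a, which encodes p21, was dim, at 412 or less on every array, and gave -0.39 ± 0.29 and 0.12 ± 0.71 in its 2 sets. Immediate-early factors (41 tested) had a positive difference in 36 genes, a median of 0.33, 16 upward, 0 downward and 3 rising slopes. Under centring their median was 0.11 with 9 upward and 5 downward, against 538 and 1805 of all 6118 tested probe sets. Zfp36l1, an RNA-destabilising protein, read 5694 and 4119 early and 8098, 9081 and 9751 late (0.89 ± 0.16, adjusted p = 0.0644, limma).

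By the probe sets that carry their names, the classical first responders of that family did not pass in either direction. Egr1 read 8291 at 2 h and 4698, 4918, 7551 and 7851 afterwards in its bright set, all above the untreated 2654 and 2583. That set differed by 0.09 ± 0.25 between late and early. The dimmer Egr1 sets, also with overlap, differed by -0.22 ± 0.38, 0.28 ± 0.39 and 1.09 ± 0.49 (adjusted p = 0.416 for the last, limma). Fos differed by 0.37 to 0.49 over 3 sets with overlap. A further set, made from the same sequence record as one of these but given no gene name by the annotation, was under the floor early and read 668, 709 and 883 late, at least 3.04 higher (adjusted p = 0.0341, limma), so no direction is given for Fos. Jun differed by 0.32 ± 0.33 in its bright set and Atf3 by 0.47 ± 0.34. Myc, the growth-driving factor, read 1389 and 1562 early and 2068, 2711 and 3285 late in one set (0.84 ± 0.41), below the higher untreated array (2988) until 24 h, where butyrate held it between 69 and 480.2. Ccnd1, cyclin D1, stayed between 13959 and 18872 under aspirin (0.15 ± 0.30).

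Genes of prostaglandin and related lipids (18 tested) had a median of 0.46, with 8 upward and 1 downward. Ptgs1, which encodes cyclooxygenase-1, read 179 and 167 early and 205, 276 and 336 late (0.63 ± 0.31, adjusted p = 0.464, limma), with 248 and 286 untreated. Ptgs2, cyclooxygenase-2, was dim, with 203 and 236 early and 41.2, 238 and 252 late in one set, and did not separate (-0.32 ± 0.45 and -0.33 ± 0.31). Tbxas1, thromboxane synthase, read 151 and 189.9 early and 255, 391 and 695 late (1.28 ± 0.48). Genes of apoptosis (20) had a median of 0.28 with 6 upward and 1 downward, and Bok, a BCL2-family member that promotes death, rose as a slope in 1 of 2 sets (0.25 ± 0.05 per doubling, adjusted p = 0.0496).

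Growth factors and their receptors (57 tested) had a positive difference in 49 genes, a median of 0.31, 19 upward and 0 downward. Under centring their median was 0.09 with 8 upward and 8 downward, against 538 and 1805 of all 6118 tested probe sets. Matrix and protease genes (42) had a median of 0.08, 9 upward and 3 downward, with 4 rising slopes, and -0.14 under centring. Mmp13, collagenase-3, was under the floor early and read 276, 1044 and 2193 late, at least 3.24 higher (adjusted p = 0.157, limma). Butyrate gave 497 at 6 h and 1776 at 24 h for the same gene. NF-kappaB targets (30) had a median of 0.17 with 7 upward and 2 downward, and -0.05 under centring.

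The groups with the lowest medians were those of protein production and turnover. Ribosomal proteins (37 tested) had a negative difference in 34 genes and a median of -0.20, with 0 upward and 9 downward, against -0.06 under butyrate. The sizes were small: Rpl14 read 15103 and 16042 early and 12283, 10373 and 10091 late (-0.52 ± 0.16, adjusted p = 0.235, limma), and Rps9 differed by -0.25 ± 0.11. Ribosome assembly and translation (29) had a median of -0.26 with 1 upward and 12 downward, led by Polr1d and by Eif2s1, the initiation factor subunit that stress kinases modify, which read 15123 and 13622 early and 11583, 11052 and 9005 late (-0.45 ± 0.17). Proteasome genes (31) had a median of -0.18 with 1 upward and 11 downward, among them Psmb5 in all 3 probe sets (-0.29 to -0.37).

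Cell cycle and replication genes (41 tested) had a median of -0.13 under aspirin, with 4 upward and 11 downward, and of -0.79 under butyrate, with 3 upward and 24 downward, and the difference was not tested over the list. The list's slopes that passed were 1 rising and 0 falling. That gene, Cdk5, read 381 and 614 early and 851.5, 898 and 1151 late, with 259 and 791 untreated (0.44 ± 0.06 per doubling, adjusted p = 0.022, limma). Mcm5, a replicative helicase subunit, read 1478 and 2313 early and 1279, 590.0 and 416 late (-1.44 ± 0.57, adjusted p = 0.373, limma), and Pcna, the replication clamp, differed by -0.28 and -0.57 in its 2 sets. Oxidative phosphorylation (43) had a median of -0.08, with 3 upward and 12 downward, and without the 2 h array 13 upward and 16 downward. The medians of these 5 lists were below 0 under every alternative run, and without the 2 h array ribosomal proteins stood at -0.08 with 4 upward and 9 downward. In the other 3 lists that array's removal gave 4 upward and 16 downward for ribosome assembly, 6 and 19 for the proteasome, and 7 and 18 for the cell cycle. Without it, 1616 of all 6118 tested probe sets separated upward and 1309 downward, so the 9 of 37 ribosomal proteins were near that share.

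**Figure D3:**
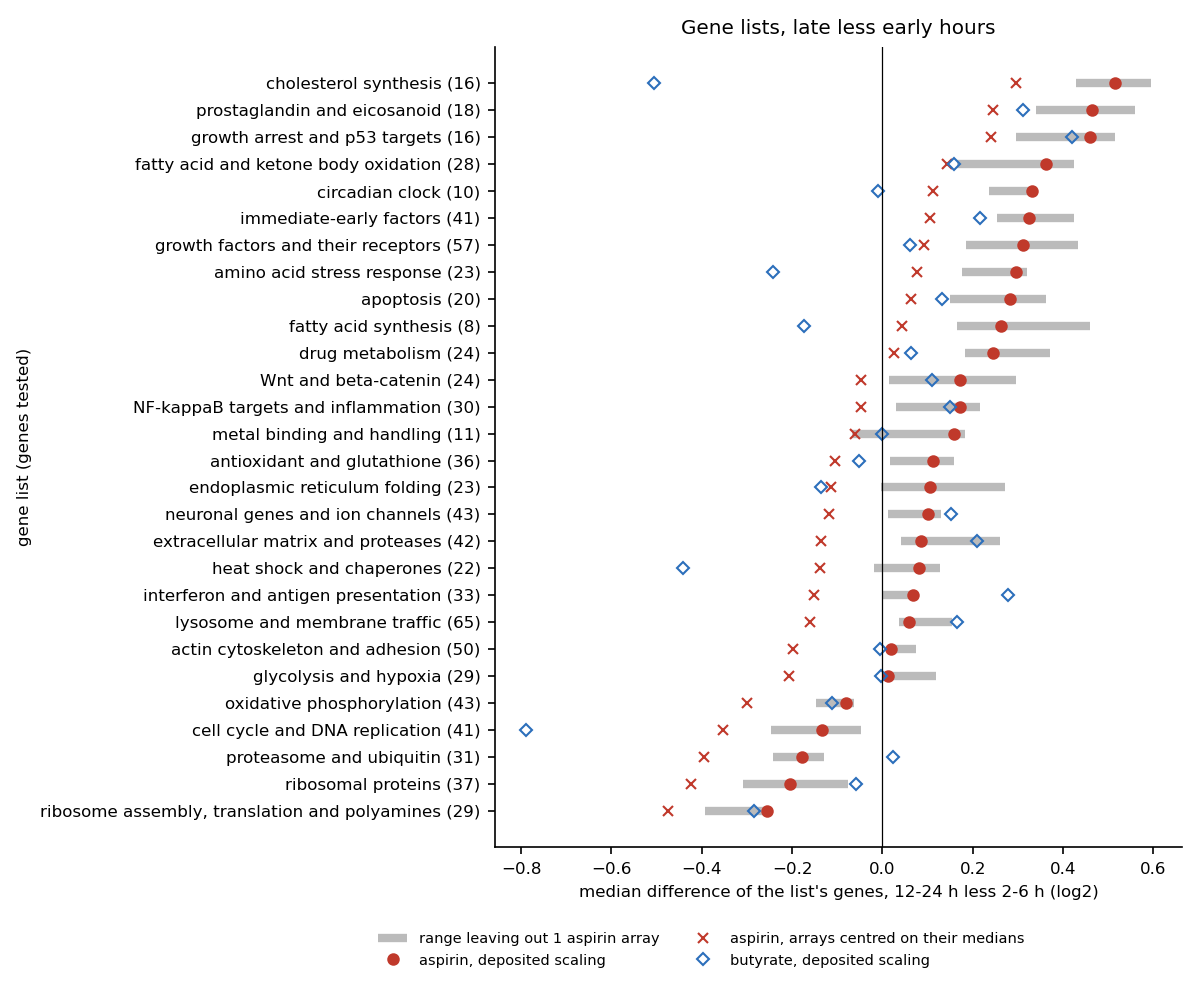
Median late-less-early difference (log2) of 28 gene lists, with the number of genes tested in brackets, for aspirin (red circles), aspirin after centring each array (red crosses) and butyrate (blue diamonds), and grey bars for the range when 1 aspirin array is left out. Cholesterol synthesis lies highest at 0.52 under aspirin and at -0.51 under butyrate, and the ribosome lists lie lowest, at -0.20 and -0.26.

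Single arrays stood apart from the rest of the aspirin course in a small share of probe sets, and the 2 h and 24 h arrays, which end the course, did so most often. In 74 probe sets (1.21% of 6118) it exceeded each of the 4 other aspirin arrays by at least 2-fold, against 48 for the 2 h, 23 for the 6 h, 16 for the 12 h and 30 for the 16 h array (0.785%, 0.376%, 0.262% and 0.490%). In the downward direction the counts were 76 (1.24%) for 2 h, 45 for 6 h, 23 for 12 h, 11 for 16 h and 46 (0.752%) for 24 h. Of the 74, 48 also exceeded both untreated arrays by at least 2-fold. Genes that butyrate raises were among them: in 16 of the 74 (21.6%) all 3 late butyrate arrays were at least 2-fold above both untreated ones, as in 424 of all tested sets (6.93%), of which the 16 are 3.77%. At the 4 other hours that share was between 0.00% and 6.25%. These are single arrays, with no test.

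Errfi1, a feedback inhibitor of the EGF receptor, was under the floor at the 4 earlier hours and read 944 at 24 h, where butyrate gave 829 at 2 h and 1434 at 24 h. Dusp1, a phosphatase of stress kinases, was highest at 24 h in all 3 probe sets, with 1467, 1020.2 and 1139 at 24 h and at most 214 before. Il1a, the cytokine interleukin-1 alpha, read 707 in one set. Ngfr, the low-affinity neurotrophin receptor, read 2826 at 24 h, with 2117 at 24 h of butyrate. Its earlier aspirin values were uneven, at 348, -1063.4, -975 and 107 from 2 to 16 h, and the untreated cells read -901.8 and -86.4. Chrna7, a nicotinic receptor subunit, read 732 after at most 104. The 24 h aspirin level was not a fixed share of the 24 h butyrate level: it was 5.48% for the kinase Map4k1 (263 against 4807), 65.8% for Errfi1, 133% for Ngfr and 307% for Chrna7. Rbp2, a retinol-binding protein, read 572 at 24 h of aspirin and was under the floor on the 11 other arrays. The other tested sets of Errfi1 (late less early 0.55), Ngfr (0.10) and Chrna7 (-0.45 and 0.49) overlapped between early and late hours. The genes of this paragraph were chosen after their values were seen, and what sets the 24 h array apart was not tested.

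**Figure D4:**
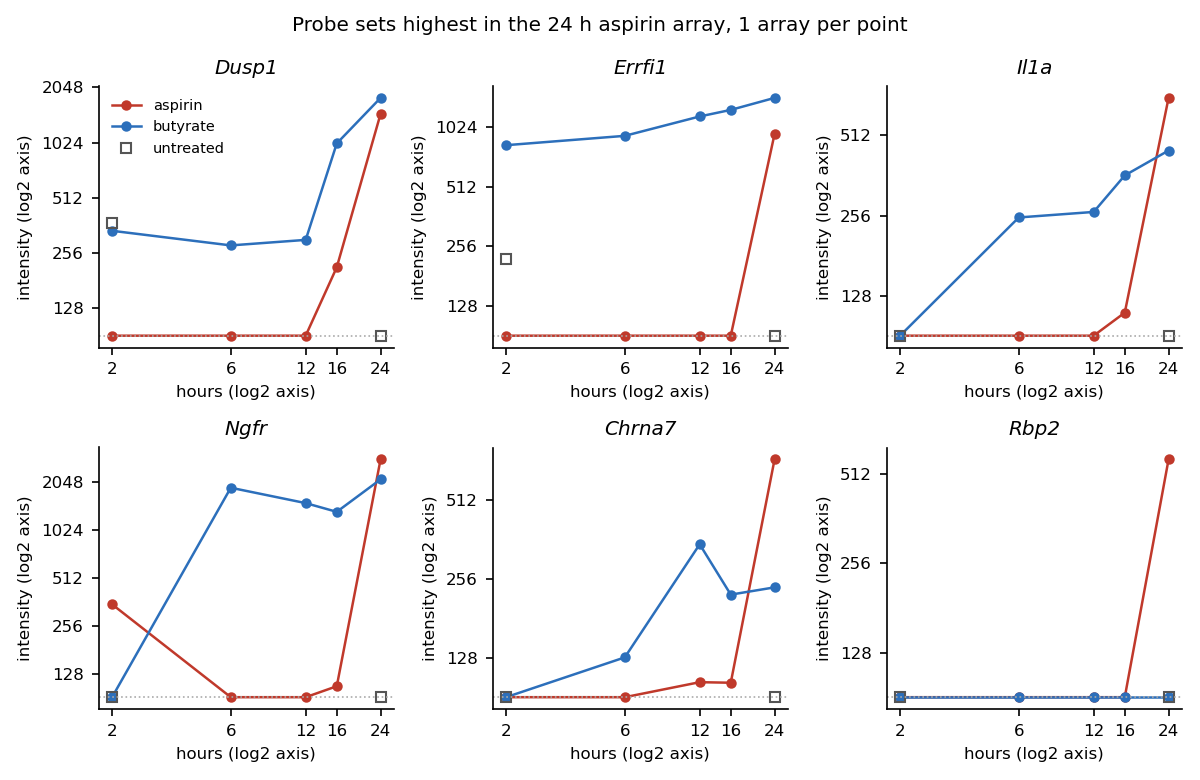
Intensity (log2 axis, values under the floor of 90.91 drawn at the dotted floor) against hours (log2 axis) for 6 genes highest in the 24 h aspirin array, 1 array per point, with aspirin in red, butyrate in blue and untreated cells as open squares. Errfi1 goes from the floor at 16 h to 944 at 24 h of aspirin, and Rbp2 leaves the floor on that array only.

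Slc16a6, a transporter of the monocarboxylate family, read 1127 at 2 h and 300.3 to 494 afterwards, Igfbp6, which binds insulin-like growth factors, read 1266 and then 308 to 384, and Atp2a2, the calcium pump of the endoplasmic reticulum, read 895 and then at most 256 in 1 of its 3 sets. Hmox1, heme oxygenase, was highest there as well, with 1455 at 2 h and 353 to 748 later in one set and 2263 against 797 to 1378 in the other. The untreated cells read 381 and 322 in the first set. These genes too were chosen after their values were seen, Hmox1 excepted. The untreated cells read 187.5 and 207 for Slc16a6, 473 and 323.5 for Igfbp6 and 406 and 306 for Atp2a2. At 2 h of butyrate these sets read 390, 745 and 286. The 2 h aspirin array also has the lowest actin 5′ to 3′ ratio (0.646), whose part here was not tested.

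Aspirin and butyrate were then set against each other over the same hours, by testing the difference of the 2 late-less-early changes. It passed in 20 of 6118 probe sets (0.327%; limma), 7 higher (0.114%) and 13 lower (0.212%) under aspirin, with 653 (10.7%) at an unadjusted p under 0.05. For scale, butyrate alone passed between late and early in 143 sets (2.34%) and as a slope in 550 (8.99%), and its late arrays lay above the early ones by at least 2-fold in 237 sets (3.87%) and below them in 183 (2.99%). Leaving out 1 array moved the 20 to 0 (without butyrate 2 h or aspirin 16 h), to 3, 4, 5 and 9 (without aspirin 12, 24, 2 or 6 h), to 5 and 9 (without butyrate 24 or 16 h), to 38 (without butyrate 12 h) and to 78 (without butyrate 6 h). With the hour as a block on the 10 treated arrays none passed (759 at an unadjusted p under 0.05).

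Cyp51, the sterol demethylase, moved in opposite directions. One set read 811 and 1139.8 early and 2527, 3651 and 4867 late under aspirin, and 3078, 1457, 789, 1061 and 571 over the same hours of butyrate, a difference of 3.32 ± 0.54 (adjusted p = 0.0285, limma). Of its 4 other sets, 3 differed the same way by 1.56 to 2.02 without passing, and the dimmest by -0.37. Mapkapk3 was likewise higher late under aspirin and lower late under butyrate, where it read 2260.1 at 2 h and 946 at 24 h (difference 2.63 ± 0.42, adjusted p = 0.0285). It passed in 9 of 21 alternatives and Cyp51 in 4.

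Several genes stayed nearly level under aspirin and went down under butyrate. Il33, an alarmin cytokine of epithelium, stayed between 10163 and 11760.3 at all 5 hours of aspirin and went from 11091 to 673 under butyrate (3.28 ± 0.53, adjusted p = 0.0285, limma). Psat1, of serine synthesis, stayed between 9242 and 13523 in the set that passed and went from 13681 to 1441 (2.53 ± 0.40), and the mitochondrial chaperonin Hspd1 stayed between 11550 and 14689 and went from 13785 to 4488 (1.42 ± 0.21). Tspan8, a surface tetraspanin, went down slightly under aspirin (-0.26 ± 0.25) and by 2.21 under butyrate.

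In the other direction, 7 genes whose tested set stayed under the floor throughout aspirin rose late under butyrate, so that for them the aspirin change is unknown and the difference of drugs restates the butyrate change: RT1-DMb, of class II antigen loading, Padi2, Mapt, Cnn1, Xdh, Rab3b and Creg1. RT1-DMb read 515, 778 and 722 at the late hours of butyrate (fitted difference with aspirin at the floor -2.78 ± 0.35, adjusted p = 0.0167, limma) and passed in 16 of 20 alternatives, as did Padi2, an arginine deiminase (-2.66 ± 0.35). Rab3b, a vesicle GTPase, is less clear, because its second set was higher late under aspirin too (1.82 ± 0.45). Ap2s1, a clathrin adaptor subunit, was one of few that went opposite ways, with 3932 and 3803 early and 2676, 2387 and 2617 late under aspirin, 3083 and 3325 early and 4799, 6299 and 5665 late under butyrate, and a difference of -1.39 ± 0.23 and -1.25 ± 0.21 in its 2 sets (adjusted p = 0.0285 each).

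**Figure D5:**
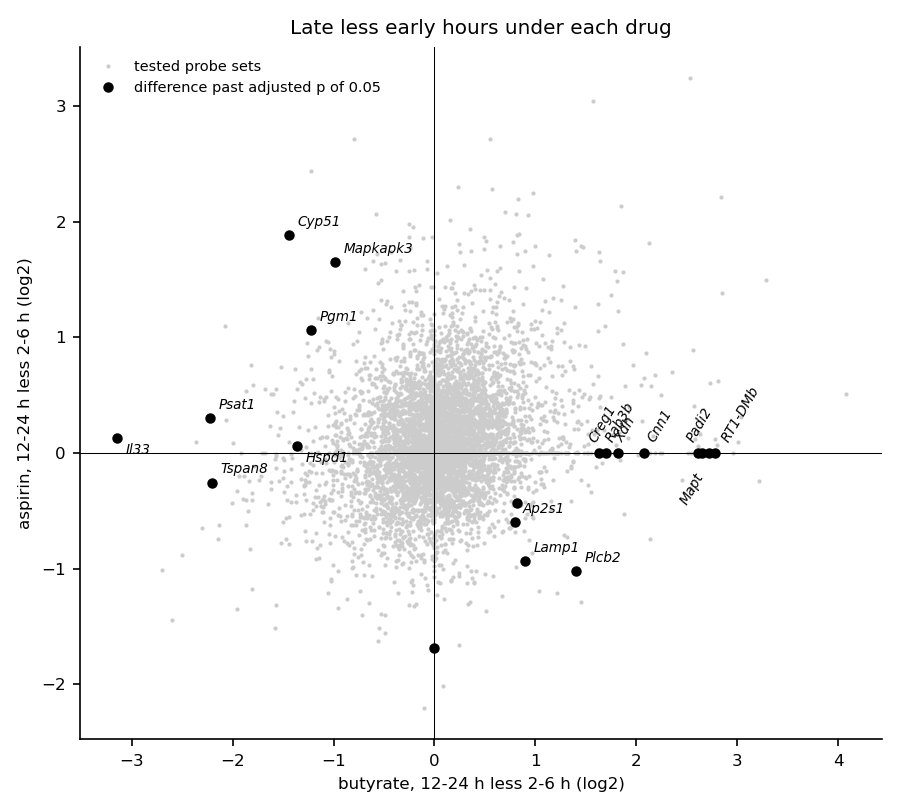
Late-less-early difference (log2) under aspirin (vertical) against that under butyrate (horizontal) for the 6118 tested probe sets (grey), with the 20 whose difference between drugs passed in black and named where they name 1 gene. Most black points lie near 0 on the aspirin axis and far from 0 on the butyrate axis, while Cyp51 and Mapkapk3 are higher under aspirin and lower under butyrate.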

How the data were processed

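Per the labels, the arrays measured total RNA of CC531 cells. The authors deposited 1 linear intensity per probe set and array, with negative values kept and a 2% trimmed mean of 1001.5 to 1002.1 on every array, so the scaling was kept as deposited. Software and background step: not given in the sources used here. Intensities were floored at 90.91 (the size of the 10th percentile) and put on a log2 scale. Probe sets with a mean log2 over the 12 arrays in the lowest 30% were left out (2622 left out, 6118 tested), and differences of dim genes are compressed by the floor.

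The main test was limma 3.58.1 in R 4.3.3 (lmFit, eBayes with a variance trend, Benjamini-Hochberg over all tested sets) on 5 groups (early and late aspirin, early and late butyrate, untreated), with 7 residual degrees of freedom, and 10 treated arrays (6 degrees of freedom) for the slopes over log2 hours. The fitting steps were run on simulated data with independent normal noise, no floor and no drift between arrays. Such data cannot speak for those features of the real arrays. The number of arrays limits the precision. Gene names came from the platform annotation (7006 probe sets with 1 gene, 308 with several, 1426 with none), and 6985 symbols matched RefSeq's GRCr8 gene table. Named genes were the called ones whose groups did not overlap, filled to 10 per direction with the smallest p among sets at least 2-fold apart, 6 per direction for slopes and for the difference of drugs, up to 4 per gene list, and a fixed set of response genes. The other genes named were chosen after their values were seen. Members and lists were chosen with earlier results of these data known. The labels give no replicate numbers that pair arrays. Alternatives changed the floor, the filter, the scaling, the variance model, the arrays in the fit and the call rule, and left out each array in turn.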

Additional observations from a re-analysis of the deposited data

Results flagged for a closer look

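In 20 probe sets the change from early to late hours differed between aspirin and butyrate by the test of the difference itself (limma), and the 2 of these without a gene name are counted only. For RT1-DMb, Padi2, Mapt, Cnn1, Xdh, Rab3b and Creg1 the aspirin side was at the floor on all 5 arrays, so their values hold the butyrate change alone. Aspirin less butyrate, on the log2 scale, was positive for Cyp51 (3.32), the alarmin Il33 (3.28), the kinase Mapkapk3 (2.63), the serine synthesis enzyme Psat1 (2.53), the sugar phosphate enzyme Pgm1 (2.28), the tetraspanin Tspan8 (1.95) and the chaperonin Hspd1 (1.42). It was negative for RT1-DMb (-2.78), Padi2 (-2.66), the microtubule protein Mapt (-2.61), the phospholipase Plcb2 (-2.43), the smooth muscle calponin Cnn1 (-2.08), the lysosomal membrane protein Lamp1 (-1.84), xanthine dehydrogenase Xdh (-1.82), Rab3b (-1.70), Creg1 (-1.63) and both sets of Ap2s1 (-1.39 and -1.25).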

How the results depend on the processing

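Directions depended on the scaling and on single arrays. Centring turned 81 rising and 20 falling slopes into 62 and 135, and 5 higher and 1 lower call became 1 and 9 without aspirin 2 h. For the contrast of late and early aspirin, 6 probe sets passed; 16 passed with a floor of 50, 3 with a floor of 200, 20 with a filter at the 50th percentile, 2 with quantile normalization, 2 without a variance trend, 0 on the 5 aspirin arrays alone (650 at an unadjusted p under 0.05), 3 on the 10 treated arrays, and 267 by no overlap and 2-fold. Leaving out 1 array gave 0 to 19: 0 without aspirin 16 or 24 h and 19 without aspirin 6 h. For the difference of drugs, 20 became 5 with a floor of 50, 5 with the stricter filter, 3 with centring, 13 without a trend and 0 with the hour as a block, and 0 to 78 leaving out 1 array (0 without butyrate 2 h or aspirin 16 h, 78 without butyrate 6 h). For slopes, 101 became 224 with a floor of 50, 35 with 200, 246 with the stricter filter, 197 with centring and 0 on aspirin alone, and 6 to 231 leaving out 1 array (6 without butyrate 6 h, 231 without aspirin 6 h). The 216 higher sets became 132 with a floor of 200 and 120 with centring, and 191 to 368 leaving out 1 array. The 51 lower sets became 81 and 24 with floors of 50 and 200, 87 with quantile normalization and 134 with centring, and 59 to 186 leaving out 1 array. The causes were not tested. No paired analysis was possible because the labels pair no arrays within aspirin by replicate. A dim signal limits what can be seen: 16.2% to 21.1% of tested sets were at the floor on each aspirin array.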

Other observations

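Several gene groups not described above had lower medians after centring, which also moved the median of all tested probe sets from 0.04 to -0.18. Drug metabolism (24 genes tested) had a median late-less-early difference of 0.24 on the log2 scale under aspirin, with 6 genes separated upward and 1 downward, and 0.02 after centring. Wnt and beta-catenin genes (24) had 0.17, with 7 upward and 3 downward, and metal handling (11) 0.16, with 2 and 0; both turned below 0 after centring (-0.05 and -0.06). Antioxidant genes (36) had 0.11, with 5 upward and 4 downward, neuronal genes (43) 0.10, with 8 and 1, interferon and antigen presentation (33) 0.07, with 5 and 1, and lysosome and traffic (65) 0.06, with 11 and 4. Actin and adhesion (50) had 0.02, with 11 upward and 4 downward, and glycolysis and hypoxia (29) 0.01, with 7 and 1. These 6 lists stood between -0.21 and -0.11 after centring. For scale, 16.7% of all 3647 tested genes separated upward and 10.9% downward. The upward share was near that in neuronal genes (18.6%), metal handling (18.2%), lysosome and traffic (16.9%) and interferon and antigen presentation (15.2%). None of these counts was tested.

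The clock genes (10 tested) had a median of 0.33, with 2 upward and 0 downward. Nr1d1, the nuclear receptor REV-ERB-alpha, was under the floor early in both of its probe sets and read 433, 216 and 388 late in one and 206, 313 and 481 in the other, at least 1.86 and 1.79 higher, which did not pass. The untreated cells read 156 and 269 in the first set. Nfe2l2, which encodes the antioxidant regulator NRF2, read 1849.9 and 1457 early and 3222, 3709 and 3049 late (1.01 ± 0.23), while Nqo1, one of its targets, differed by 0.36 ± 0.24 and 0.34 ± 0.40 with overlap. Slc2a1, the glucose transporter GLUT1, read 3344 and 2531 early and 5035, 5172 and 6199.7 late in one set (0.90 ± 0.19), and differed by 0.29 ± 0.29 in the other.

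A probe set without a gene name that passed the test read 1985 and 2622 early and 5791, 8066 and 9584 late, and the other such set is the one given beside Fos.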
